A study of Mus musculus with 9 samples.

Results

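Kinesins are motor proteins that walk along microtubules or take them apart, using ATP. One set of them builds and moves the mitotic spindle and separates daughter cells, so their transcripts accumulate as cells approach division. Another set carries vesicles, mitochondria and other cargo through the cytoplasm, and a smaller set serves cilia and the Hedgehog signals that pass through them. In the testis, dividing spermatogonia need the spindle motors for each round of mitosis, and mice with a mutant Kif18a lose germ cells before birth.

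The kinesin genes were taken by symbol, as every entry of the deposited expression table named Kif followed by a number and at most one letter and one further digit. This gave 37 genes among the 23045 symbols that stood on 1 entry each, and no kinesin symbol stood on more than 1. By their known roles they were sorted into 12 mitotic kinesins, 13 transport kinesins, 6 of cilia and Hedgehog signalling and 6 others. The motors Cenpe and Kifc1, whose symbols lack this form, were followed as companion genes.

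RNA was sequenced from spermatogonia of Id4-eGfp transgenic mice (strain LT-11B6, on C57BL/6), in which the Id4 reporter marks the stem cell end of the undifferentiated germ cells. Cells positive for the reporter were sorted from testes at postnatal day 6, and all 3 groups carry the transgene. TSPAN8-high holds the 1/3 of these cells with the strongest antibody staining for the surface tetraspanin TSPAN8, TSPAN8-low the 1/3 with the weakest, and all ID4-EGFP+ cells were sorted on the reporter alone. Each group has 3 libraries from separate preparations, so the groups are enriched pools of one reporter line and the fractions do not add up to the whole.

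Levels are FPKM as the authors computed them, that is fragments adjusted for transcript length and sequencing depth. Total read counts are not known. Depth relative to all ID4-EGFP+ replicate 1 was estimated from the most common ratio of very low FPKM values between libraries. The estimates ran from 0.856 to 1.05. Every TSPAN8-low estimate (0.856, 0.949 and 0.886 in replicates 1, 2 and 3) lay below every TSPAN8-high estimate. Estimated depth thus differed along with the fractions, and its part in the differences between them was not tested. All 7 germ cell markers were expressed (summed FPKM of 2039 to 2419 in TSPAN8-high, 1849 to 2371 in TSPAN8-low and 1649 to 2236 in all ID4-EGFP+). Dazl made up most of each sum, with 1148 to 1849 FPKM over the 9 libraries, while Zbtb16 had 4.31 to 8.43 FPKM. The list includes Tspan8 and Id4. Tspan8 itself rose in TSPAN8-high over TSPAN8-low (34.0 ± 8.41 against 9.73 ± 2.71 FPKM, SD, n = 3 each, limma adjusted p = 0.00246), and so did Id4 (67.2 ± 7.17 against 26.2 ± 8.14 FPKM, adjusted p = 0.00567). Of 12 Sertoli cell markers 7 were high enough to test, and their summed level was higher in TSPAN8-high within each replicate number, at 196, 240.1 and 405 FPKM in TSPAN8-high against 82.1, 133 and 256 FPKM in TSPAN8-low. It was 109, 164 and 225 FPKM in all ID4-EGFP+. Endothelial, Leydig and red blood cell markers were all too low to test, and peritubular myoid and leukocyte lists had 1 tested gene each. The Leydig sum stood out in TSPAN8-low replicate 3, at 6.35 FPKM, and was at or under 1.44 FPKM in every other library. The summed level of the 3 leukocyte markers was also higher in TSPAN8-high within each number, at 12.5, 14.5 and 12.8 FPKM in TSPAN8-high against 5.13, 8.63 and 12.6 FPKM in TSPAN8-low, and 7.38, 9.03 and 11.6 FPKM in all ID4-EGFP+. The myoid sum was low but likewise higher, at 0.523, 0.554 and 4.48 FPKM in TSPAN8-high against 0.210, 0.386 and 1.26 FPKM in TSPAN8-low. The part of Sertoli, Leydig, leukocyte or myoid RNA in the kinesin results below was not tested.

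Promoters of the kinesins were searched for short sequences, including one known from genes of the late cell cycle. RefSeq promoter windows (GRCm38.p6), from 250 bases before to 50 bases after a transcription start, were found for 31 of the 37 genes, 11 of them mitotic and 10 transport kinesins. Kif5a, Kif5b, Kif13b, Kif19a, Kif20a and Kif21b had no match. The CHR element, searched as TTTGAA on both strands, is the cell cycle genes homology region, at which regulators of late cell cycle genes are known to bind. The upstream stretches below are shown so that promoters with and without these letters can be compared. They are, in order, a pair of mitotic kinesins with the element, the most abundant mitotic kinesin without it, and the most abundant transport kinesin. Capitals mark the CHR element, here on the reverse strand as TTCAAA, the CCAAT box as its complement ATTGG, and the GC box GGGCGG or its complement CCGCCC.
Kif11, chr19:37376282-37376381, plus strand: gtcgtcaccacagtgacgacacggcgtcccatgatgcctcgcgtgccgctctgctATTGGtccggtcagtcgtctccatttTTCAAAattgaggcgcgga
Kif22, chr7:127042421-127042520, minus strand: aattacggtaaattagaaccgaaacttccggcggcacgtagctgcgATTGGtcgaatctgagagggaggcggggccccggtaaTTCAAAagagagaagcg
Kif18a, chr2:109280608-109280737, plus strand: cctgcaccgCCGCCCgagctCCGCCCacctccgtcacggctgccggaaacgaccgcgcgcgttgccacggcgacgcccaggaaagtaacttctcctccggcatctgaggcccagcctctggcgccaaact
Kif3a, chr11:53567269-53567368, plus strand: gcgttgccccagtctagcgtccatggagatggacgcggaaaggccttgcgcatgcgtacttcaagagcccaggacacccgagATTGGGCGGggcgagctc
Each stretch ends at the base before the start. In Kif11 and Kif22 the CCAAT complement lies upstream of the CHR letters, and in Kif3a the CCAAT complement and the GC box overlap.

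A further 6 mitotic kinesins are shown as 30 bases around the CHR letters, because the same core stands in otherwise different surroundings and on either strand. Capitals mark only the CHR letters here, so the CCAAT complement attgg of Kif23 stands in lower case.
Kif2c, chr4:117178858-117178887, minus strand: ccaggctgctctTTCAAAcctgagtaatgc
Kif4, chrX:100626072-100626101, plus strand: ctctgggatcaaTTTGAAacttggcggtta
Kif15, chr9:122951050-122951079, plus strand: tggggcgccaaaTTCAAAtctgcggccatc
Kif18b, chr11:102925104-102925133, minus strand: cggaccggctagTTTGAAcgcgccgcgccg
Kif20b, chr19:34922353-34922382, plus strand: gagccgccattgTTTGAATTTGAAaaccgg
Kif23, chr9:61946780-61946809, minus strand: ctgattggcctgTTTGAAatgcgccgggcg
Kif20b holds 2 copies side by side.

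The letters TTTGAA stood in the windows of 9 of 11 mitotic kinesins, all but Kif18a and Kif2b, and of 1 of 10 transport kinesins, Kif1a, in one of its 2 windows. They stood in 20.2% of all genes with a window, and in 14.0% of the 8335 tested genes that have one. Within 60 bases of the start the counts were 7 mitotic kinesins and 1 transport kinesin, against 6.36% of all genes. A second form of the element, TTCGAA, stood in 0 of 11 mitotic and 0 of 10 transport kinesins. It was found in 1 of the 31 kinesins, Kif24 (1.80% of all genes, 2.48% of the tested ones). CCAAT boxes were found in 7 of 11 mitotic and 3 of 10 transport kinesins (41.1% of all genes), and the GC box in 6 of 11 and 8 of 10 (38.2% of all genes, 69.5% of the tested ones). A match is a description of the letters and neither a binding site nor a cause of the levels below.

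**Figure D1:**
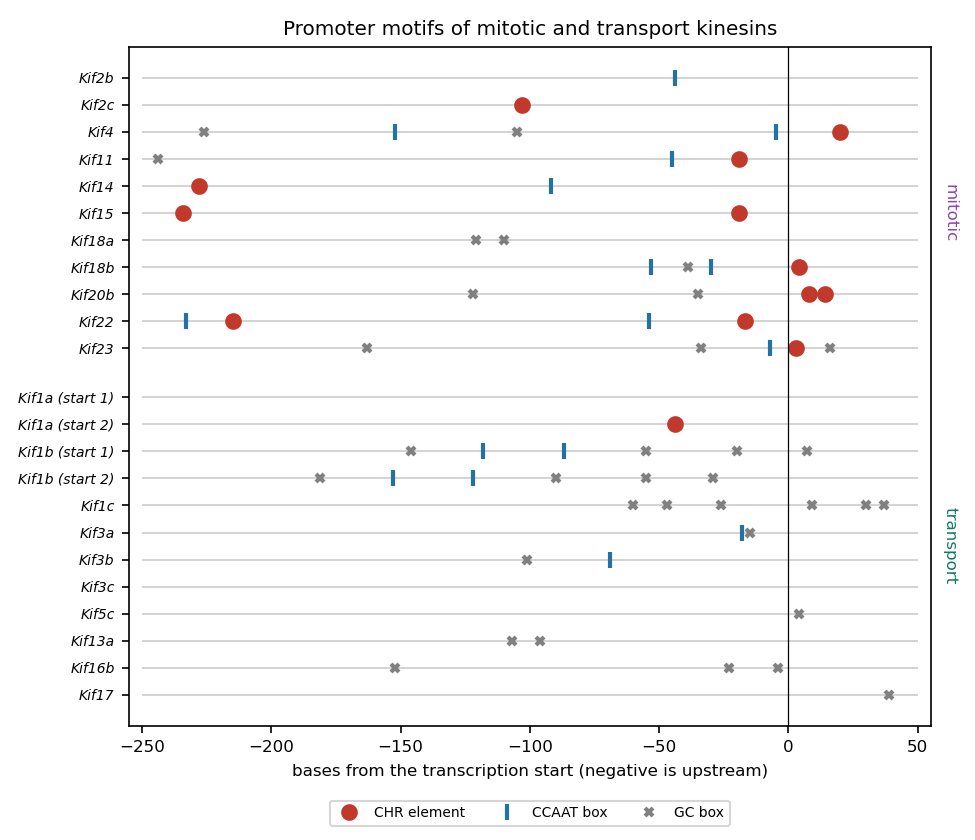
Positions of the CHR element (circles), the CCAAT box (bars) and the GC box (crosses) in the promoter windows of 11 mitotic and 10 transport kinesins, in bases from the transcription start; genes with 2 starts have 2 rows. Within 60 bases of the start, 7 mitotic kinesins and 1 transport kinesin hold a CHR element.

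Of the 37 kinesins, 25 reached the minimum for testing, set at 1 FPKM or more in 3 or more of the 9 libraries. They were 11 mitotic, 9 transport, 3 cilium and 2 other kinesins. The mitotic kinesins made up most of the kinesin transcripts. Their summed FPKM was 84.1 ± 1.12% of that of all 37 kinesins in TSPAN8-high, 81.4 ± 0.146% in TSPAN8-low and 81.7 ± 0.908% in all ID4-EGFP+ (SD, n = 3 each). The transport kinesins gave 9.19 ± 0.600% in TSPAN8-high, 11.2 ± 0.666% in TSPAN8-low and 11.3 ± 0.878% in all ID4-EGFP+.

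**Figure D2:**
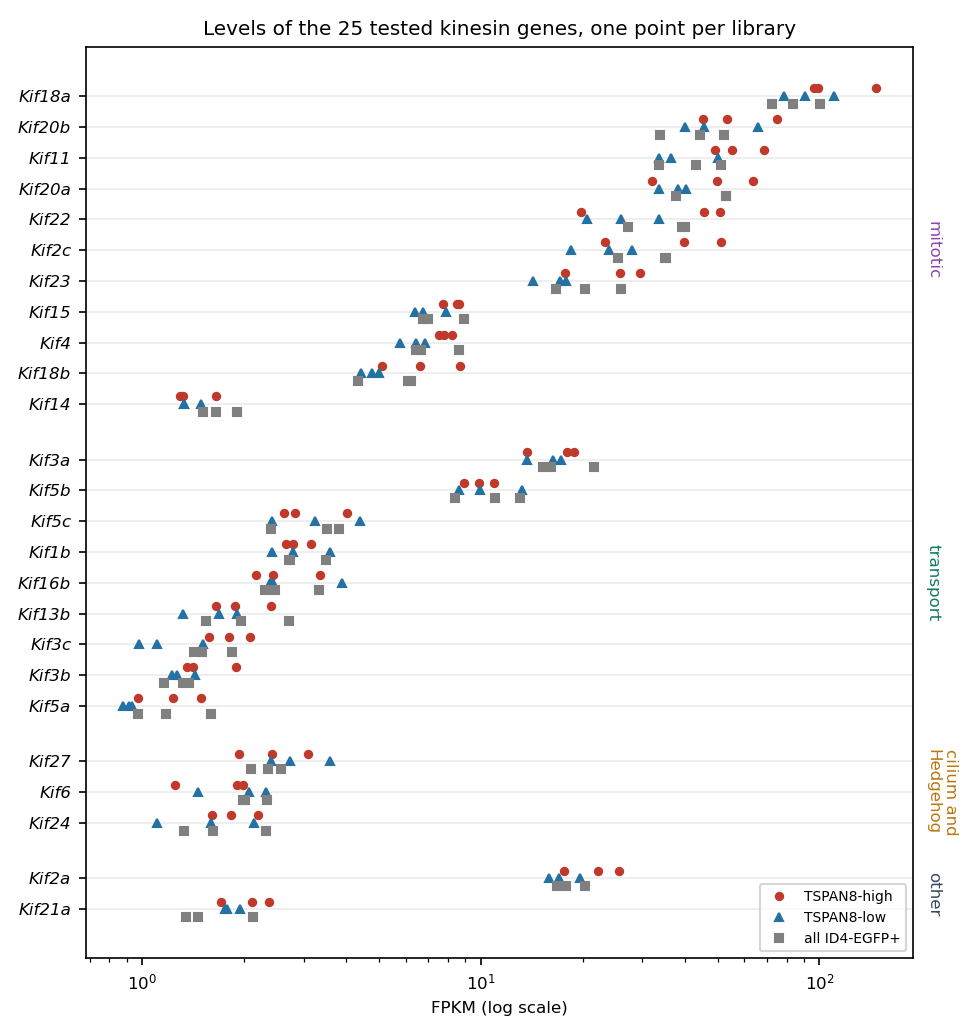
FPKM (log axis) of the 25 tested kinesins in each of the 9 libraries, by class and mean level; circles are TSPAN8-high, triangles TSPAN8-low and squares all ID4-EGFP+. From Kif18a to Kif23 the mitotic kinesins stand above nearly all transport kinesins, of which Kif3a is the highest.

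Kif18a, which damps the movement of chromosomes at the spindle equator, had the highest level of all kinesins, with 147, 96.5 and 98.7 FPKM in TSPAN8-high, 111, 78.3 and 90.4 FPKM in TSPAN8-low and 100.3, 83.5 and 72.3 FPKM in all ID4-EGFP+. In each group the sample numbered 1 was the highest, and the groups overlapped. Kif20b, a motor of cytokinesis, had 74.9, 53.2 and 45.4 FPKM in TSPAN8-high, 65.6, 45.5 and 40.0 FPKM in TSPAN8-low and 52.3, 44.3 and 33.8 FPKM in all ID4-EGFP+. Here too the sample numbered 1 led each group and the groups overlapped.

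Kif11, the kinesin-5 motor that pushes spindle poles apart, had 68.4, 55.2 and 49.2 FPKM in TSPAN8-high, 50.2, 36.4 and 33.6 FPKM in TSPAN8-low and 43.1, 51.4 and 33.6 FPKM in all ID4-EGFP+. TSPAN8-high exceeded TSPAN8-low within every number, although the lowest TSPAN8-high value lay just under the highest TSPAN8-low value. Kif20a, which brings the chromosomal passenger complex to the spindle midzone, had 32.1, 49.7 and 63.8 FPKM in TSPAN8-high, 33.6, 40.4 and 38.3 FPKM in TSPAN8-low and 37.7, 52.8 and 53.1 FPKM in all ID4-EGFP+. Its lowest value in each group came from the sample numbered 1, the reverse of Kif18a.

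Kif22, a chromokinesin that pushes chromosome arms away from the poles, had 19.8, 45.5 and 50.8 FPKM in TSPAN8-high, 20.5, 33.6 and 26.0 FPKM in TSPAN8-low and 27.3, 39.3 and 40.1 FPKM in all ID4-EGFP+. The sample numbered 1 was again the lowest in each group, and the groups overlapped. Kif2c, a centromere protein that takes microtubule ends apart, had 23.2, 39.9 and 51.2 FPKM in TSPAN8-high, 18.4, 28.0 and 24.0 FPKM in TSPAN8-low and 25.4, 35.2 and 35.0 FPKM in all ID4-EGFP+. TSPAN8-high was above TSPAN8-low within every number, while the value of TSPAN8-high replicate 1 lay inside the TSPAN8-low range. Kif23, the motor subunit of centralspindlin at the midzone, had 17.7, 25.7 and 29.5 FPKM in TSPAN8-high, 17.2, 17.8 and 14.2 FPKM in TSPAN8-low and 16.7, 26.0 and 20.2 FPKM in all ID4-EGFP+. Replicates 2 and 3 of TSPAN8-high stood clear of all TSPAN8-low values and replicate 1 did not.

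The 4 remaining tested mitotic kinesins were lower. Kif15, which can stand in for Kif11 on the spindle, averaged 8.29 ± 0.473 FPKM in TSPAN8-high, 7.00 ± 0.773 in TSPAN8-low and 7.55 ± 1.19 in all ID4-EGFP+ (SD, n = 3 each). Kif4, a chromokinesin that works with Prc1 at the midzone, averaged 7.84 ± 0.334 FPKM in TSPAN8-high, 6.35 ± 0.538 in TSPAN8-low and 7.24 ± 1.22 in all ID4-EGFP+. Kif18b, which shortens astral microtubules, averaged 6.81 ± 1.79 FPKM in TSPAN8-high, 4.73 ± 0.282 in TSPAN8-low and 5.55 ± 1.06 in all ID4-EGFP+. For Kif4 and Kif18b all TSPAN8-high values lay above all TSPAN8-low values. Kif14, a midbody motor of late cytokinesis, stood far below the rest at 1.42 ± 0.197 FPKM in TSPAN8-high, 1.38 ± 0.0959 in TSPAN8-low and 1.69 ± 0.201 in all ID4-EGFP+. Kif2b, a relative of Kif2c, stayed at or under 0.418 FPKM in all 9 libraries.

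By mean over the 9 libraries the order was Kif18a (97.5 FPKM), Kif20b (50.6), Kif11 (46.8), Kif20a (44.6), Kif22 (33.7), Kif2c (31.1), Kif23 (20.6), Kif15 (7.61), Kif4 (7.14), Kif18b (5.69) and Kif14 (1.50). Neighbours from Kif18a to Kif23 overlapped in their ranges over the libraries, as did Kif15, Kif4 and Kif18b. The lowest value of Kif23 (14.2 FPKM) lay above the highest of Kif15 (8.92 FPKM), and the lowest of Kif18b (4.33 FPKM) above the highest of Kif14 (1.91 FPKM). Pseudogene copies of Kif22 and Kif4 are annotated in the mouse, and a pseudogene carries Kif2c as an older name, so the division of reads between copies makes these levels less certain.

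Among the transport kinesins Kif3a led. Kif3a, which with Kif3b forms the kinesin-2 motor that drives anterograde transport in cilia, had 13.7, 18.8 and 17.9 FPKM in TSPAN8-high, 16.3, 17.3 and 13.6 FPKM in TSPAN8-low and 15.3, 21.6 and 16.1 FPKM in all ID4-EGFP+. Kif5b, the broadly expressed kinesin-1 heavy chain, had 9.87, 10.9 and 8.94 FPKM in TSPAN8-high, 13.3, 9.93 and 8.59 FPKM in TSPAN8-low and 11.0, 13.1 and 8.40 FPKM in all ID4-EGFP+. The groups overlapped for both genes, and every Kif3a value lay above every Kif5b value.

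Kif5c, a further kinesin-1 heavy chain best known from neurons, had 4.01, 2.83 and 2.62 FPKM in TSPAN8-high, 4.41, 3.23 and 2.42 FPKM in TSPAN8-low and 3.52, 3.81 and 2.40 FPKM in all ID4-EGFP+. Kif1b, which moves mitochondria and synaptic vesicle precursors, had 3.15, 2.78 and 2.66 FPKM in TSPAN8-high, 3.58, 2.42 and 2.79 FPKM in TSPAN8-low and 2.72, 3.48 and 2.74 FPKM in all ID4-EGFP+. The groups overlapped for both. Kif16b, which carries early endosomes, had 3.35, 2.18 and 2.43 FPKM in TSPAN8-high, 3.89, 2.44 and 2.38 FPKM in TSPAN8-low and 2.47, 3.32 and 2.30 FPKM in all ID4-EGFP+. Kif13b, which carries membrane cargo bound to scaffold proteins, had 1.66, 1.88 and 2.40 FPKM in TSPAN8-high, 1.90, 1.69 and 1.32 FPKM in TSPAN8-low and 1.55, 2.72 and 1.95 FPKM in all ID4-EGFP+. The highest values of both stood outside TSPAN8-high, and their groups overlapped.

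The other 3 tested transport kinesins had means under 2 FPKM. Kif3c, which also pairs with Kif3a, averaged 1.82 ± 0.253 FPKM in TSPAN8-high, 1.20 ± 0.279 in TSPAN8-low and 1.59 ± 0.223 in all ID4-EGFP+ (SD, n = 3 each), with no overlap between the fractions. Kif3b averaged 1.55 ± 0.295 FPKM in TSPAN8-high, 1.31 ± 0.109 in TSPAN8-low and 1.28 ± 0.112 in all ID4-EGFP+. The level of Kif3b was thus far below that of its partner Kif3a on the same per-length scale. Kif5a, the neuronal kinesin-1 heavy chain, averaged 1.23 ± 0.260 FPKM in TSPAN8-high, 0.910 ± 0.0266 in TSPAN8-low and 1.25 ± 0.316 in all ID4-EGFP+, and the fractions did not overlap. Kif1c, Kif13a, Kif17 and Kif1a were not tested, with highest values of 1.10, 0.751, 0.773 and 0.0214 FPKM over the 9 libraries.

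Kif2a, a microtubule depolymerase of both spindles and neurons, was as abundant as Kif3a, at 21.8 ± 3.95 FPKM in TSPAN8-high, 17.5 ± 1.93 in TSPAN8-low and 18.3 ± 1.80 in all ID4-EGFP+ (SD, n = 3 each). Kif21a, which limits microtubule growth, averaged 2.06 ± 0.329 FPKM in TSPAN8-high, 1.83 ± 0.105 in TSPAN8-low and 1.64 ± 0.419 in all ID4-EGFP+. Kif21b, Kif26a and Kif26b stayed at or under 0.729 FPKM in all 9 libraries, and Kif12 is listed at 0 in all of them. Of the cilium and Hedgehog kinesins, Kif27, a relative of Kif7 that acts in motile cilia, averaged 2.48 ± 0.584 FPKM in TSPAN8-high, 2.91 ± 0.609 in TSPAN8-low and 2.34 ± 0.240 in all ID4-EGFP+. Kif6, a motor of motile cilia, averaged 1.71 ± 0.404 FPKM in TSPAN8-high, 1.95 ± 0.444 in TSPAN8-low and 2.11 ± 0.200 in all ID4-EGFP+. Kif24, which trims microtubules at the mother centriole and restrains cilium formation, averaged 1.88 ± 0.302 FPKM in TSPAN8-high, 1.61 ± 0.521 in TSPAN8-low and 1.75 ± 0.506 in all ID4-EGFP+. All 3 overlapped between the fractions. Kif7, the Hedgehog regulator at the ciliary tip, stayed at or under 0.617 FPKM, Kif9 at or under 0.810 and Kif19a at or under 0.315.

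The first comparison set the TSPAN8-high fraction against TSPAN8-low, and asked how kinesin transcripts differ between cells strongly and weakly stained for TSPAN8. The summed FPKM of the 12 mitotic kinesins was 406, 390.3 and 414 in TSPAN8-high, against 337, 300.1 and 285 in TSPAN8-low and 323, 358 and 309.7 in all ID4-EGFP+. All 3 TSPAN8-high libraries lay above the other 6. These sums were taken on the deposited FPKM alone, and their largest members, Kif18a, Kif20b and Kif11, each overlapped between the fractions. The 13 transport kinesins summed to 41.7, 45.9 and 44.5 FPKM in TSPAN8-high, against 48.5, 42.3 and 36.5 in TSPAN8-low and 42.3, 54.6 and 40.6 in all ID4-EGFP+, and all groups overlapped. In pools of cells, a change in the number of cells of a type cannot be told apart from a change in RNA per cell. No test was made on these sums, since their members were chosen with earlier results known.

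**Figure D3:**
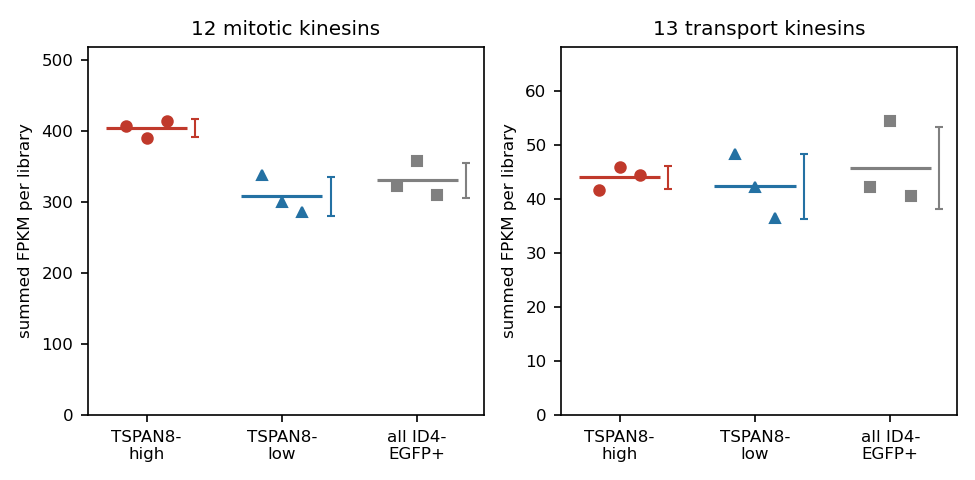
Summed FPKM per library of the 12 mitotic kinesins (left) and the 13 transport kinesins (right), axes from 0; points are libraries, lines are means and bars at the side are 1 SD (n = 3). The mitotic sums of TSPAN8-high (390.3 to 414) lie above all others, and the transport sums overlap between groups.

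Gene by gene, no kinesin passed an adjusted p of 0.05 in limma's fit of the 3 groups (Benjamini-Hochberg over all 11142 tested genes), where 5.56% of all tested genes passed. At an unadjusted p under 0.05 there were 5 of 25, Kif11, Kif23, Kif2c, Kif18b and Kif3c, where 2448 of the 11142 tested genes had that. The labels do not say that libraries of one replicate number belong together. They were taken as paired from correlations of r 0.26 to 0.48, which overlap those of unlike numbers (-0.46 to 0.28). With the number as a block in the same model, 3 kinesins were higher in TSPAN8-high and none lower. Of all tested genes 19.1% passed there (11.8% higher and 7.34% lower). Over all genes that split turned under the 3 other scalings, with 927 to 1018, 868 to 1154 and 961 to 1010 genes higher and lower. All 3 are mitotic. The share of kinesins called, 3 of 25, is thus not above that of all genes. No transport kinesin passed in either fit.

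Kif2c rose in TSPAN8-high with the block (log2 fold change 0.63, block SE 0.14, adjusted p = 0.0119; adjusted p = 0.183 without the block), by 0.32, 0.49 and 1.06 within numbers 1, 2 and 3. Kif11 rose by 0.52 with the block (SE 0.13, adjusted p = 0.0206; 0.155 without), and its differences within the numbers, 0.44, 0.59 and 0.54, were close to each other. Kif23 rose by 0.52 with the block (SE 0.16, adjusted p = 0.0448; 0.170 without), with differences of 0.04, 0.50 and 1.00. Both Kif2c and Kif23 thus differed most within number 3 and least within number 1. Fold changes were computed on log2(FPKM + 1), so those of low genes come out smaller than on FPKM itself. The ratio of mean FPKM, TSPAN8-high over TSPAN8-low, was 1.62 for Kif2c, 1.48 for Kif23 and 1.44 for Kif11.

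These 3 calls rested on single libraries. With the block, none of them held without TSPAN8-high replicate 3 or without TSPAN8-low replicate 3. Kif2c alone held without TSPAN8-low replicate 2, and Kif23 was lost without TSPAN8-high replicate 2, all ID4-EGFP+ replicate 1 or all ID4-EGFP+ replicate 3. Kif11 was lost without TSPAN8-high replicate 1, where Kif22 passed (log2 fold change 0.68, adjusted p = 0.0182). Without TSPAN8-low replicate 1 there were 5 calls, the 3 above with Kif18b (0.58, adjusted p = 0.0229) and Kif20a (0.46, adjusted p = 0.0410). Without the block, leaving out TSPAN8-high replicate 1 gave a call for Kif2c (0.94, adjusted p = 0.0359). Under 3 other scalings of the libraries with the block, Kif2c and Kif11 passed and Kif23 did not.

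As a class, the mitotic kinesins had positive estimates for 11 of 11 tested members, where 56.6% of all tested genes did. Their median log2 fold change was 0.32, against 0.05 over all tested genes. Under the 3 other scalings 10 of 11 were positive, with Kif14 turned to between -0.07 and -0.04, and the median lay between 0.22 and 0.29. The estimates ran from 0.02 for Kif14 (95% interval -0.27 to 0.31) to that of Kif2c. The transport kinesins had positive estimates for 5 of 9 members (55.6%), near the share of all tested genes, with a median of 0.08. Under the authors' normalized values, a common median and quantile normalization 5, 4 and 4 of 9 transport kinesins were positive (medians of 0.02, -0.01 and -0.0066). Among them Kif3c had the largest estimate (0.36, 95% interval 0.04 to 0.68, adjusted p = 0.175; 0.0672 with the block). Kif3a differed by 0.08 (95% interval -0.30 to 0.47) and Kif5b by -0.07 (-0.49 to 0.35), so that changes of up to those sizes are not excluded. Of the 2 other kinesins, Kif2a had an estimate of 0.29 (adjusted p = 0.329; 0.142 with the block).

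Within all 3 replicate numbers TSPAN8-high exceeded TSPAN8-low for 8 of 11 mitotic kinesins (not for Kif14, Kif20a and Kif22) and for 3 of 9 transport kinesins, where 31.4% of all tested genes did. Values of the fractions did not overlap for 4 of the 25 kinesins, Kif4, Kif18b, Kif3c and Kif5a, each higher in TSPAN8-high, against 15.9% of all tested genes. No kinesin lay wholly below, against 9.71% of all tested genes. None of these 4 passed in either fit. Kif5a reached the minimum for testing only through TSPAN8-high and all ID4-EGFP+ libraries, as all its TSPAN8-low values lay under 1 FPKM. Its lack of overlap and its place in the transport counts are thus partly set by that minimum. The difference between the mitotic and the transport class was not tested.

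**Figure D4:**
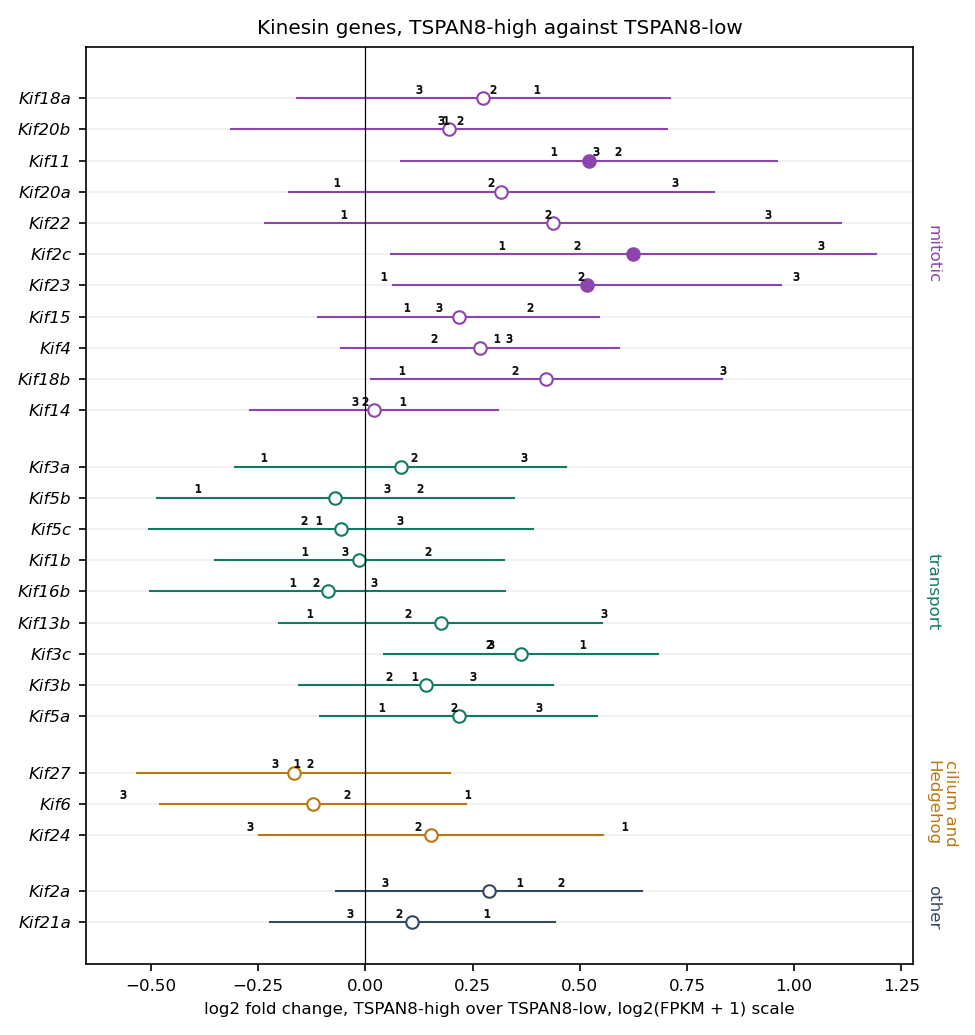
Log2 fold changes of the 25 tested kinesins, TSPAN8-high over TSPAN8-low, with 95% intervals of the fit without a block; filled circles passed with the replicate block, and digits give the difference within each replicate number. All 11 mitotic estimates lie above 0, where 56.6% of all tested genes do, and transport estimates lie on both sides.

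Several mitotic kinesins also varied with replicate number. In the samples numbered 1, Kif22 was lower than in those numbered 2 and 3 by a mean over the groups of -0.76 on the log2(FPKM + 1) scale, Kif2c by -0.62 and Kif20a by -0.50, with the same sign in all 3 groups. Kif20b (0.54), Kif18a (0.45), Kif11 (0.31) and Kif14 (0.16) were higher there, also in all 3 groups. The sign differed between groups for Kif23, Kif18b, Kif4 and Kif15. For Kif23 the difference was -0.61 in TSPAN8-high, 0.10 in TSPAN8-low and -0.43 in all ID4-EGFP+. For Kif2c it was -0.93, -0.47 and -0.45 in the same order. The GC content of the longest annotated transcript was 53.7% for Kif22, 50.3% for Kif2c and 48.4% for Kif20a, and 39.4% for Kif20b, 38.3% for Kif18a and 42.2% for Kif11. It was 46.4% for Kif14, and 46.3% for Kif23, 55.2% for Kif18b, 48.1% for Kif4 and 42.7% for Kif15. Across genes, Spearman's rho between transcript GC and this difference was -0.70 over the 25 tested kinesins, -0.84 over the 11 mitotic ones and -0.39 over 10037 tested genes. With transcript length in place of GC, rho was 0.41, 0.66 and 0.29 over the same sets. GC and length were not separated. Genes share the libraries and are not independent replicates, so this is a description. The differences between the fractions for Kif2c, Kif11 and Kif23 above were taken within the numbers by the block. The block takes the same shift for a number in all groups. The part of GC content or transcript length in the differences between the fractions was not tested.

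**Figure D5:**
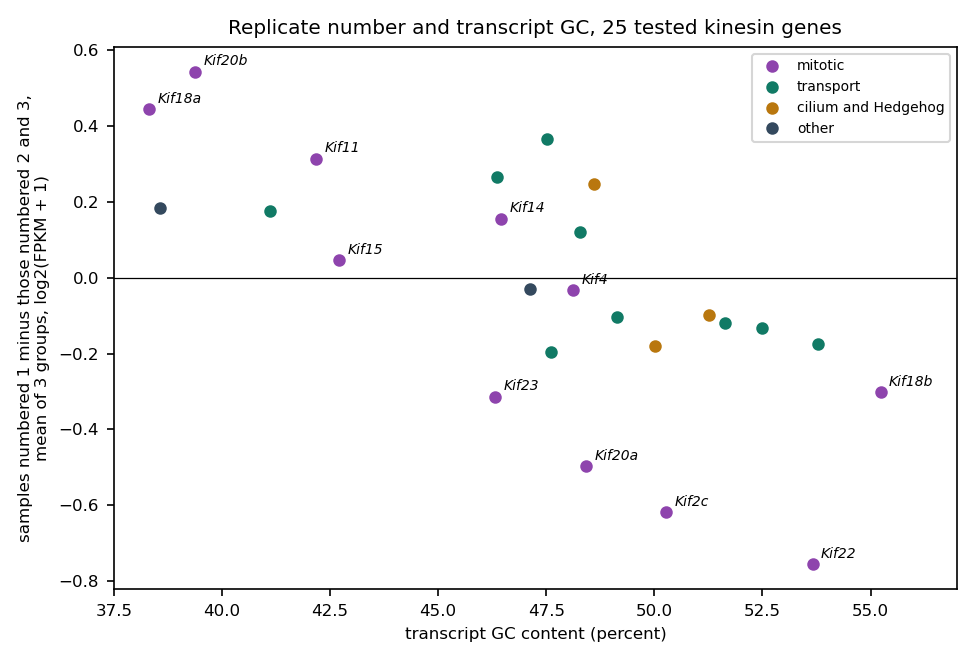
Difference of the samples numbered 1 from those numbered 2 and 3, mean over the 3 groups on the log2(FPKM + 1) scale, against transcript GC content for the 25 tested kinesins, coloured by class. Mitotic kinesins of low GC such as Kif20b (0.54) stand above 0 and those of higher GC such as Kif22 (-0.76) below.

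Set against all ID4-EGFP+ cells, no kinesin passed in TSPAN8-high or in TSPAN8-low, with or without the block. Both comparisons share the all ID4-EGFP+ libraries. Of all tested genes 0.144% passed for TSPAN8-high and 0.0% for TSPAN8-low, and with the block 3.09% and 0.0449%. At an unadjusted p under 0.05, limma's fit without the block gave no kinesin in either comparison. Of the 11142 tested genes 1085 had that for TSPAN8-high and 910 for TSPAN8-low. The fit with the block gave 3 of the 25 tested kinesins in each, where 2080 and 2115 of all tested genes had that.

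In TSPAN8-high against all ID4-EGFP+ these 3 were Kif11 (log2 fold change 0.43, adjusted p = 0.111 with the block), Kif18a (0.40, adjusted p = 0.0832) and Kif20b (0.39, adjusted p = 0.0686), each with a higher value in TSPAN8-high within all 3 numbers (20.7% of all tested genes had that). Without all ID4-EGFP+ replicate 2 all 3 passed with the block (adjusted p of 0.0206 for Kif11, 0.0395 for Kif18a and 0.0470 for Kif20b). Without TSPAN8-low replicate 1, Kif20b passed (adjusted p = 0.0451). In TSPAN8-low against all ID4-EGFP+ the 3 were Kif2c (-0.43, adjusted p = 0.157 with the block), Kif22 (-0.41, adjusted p = 0.219) and Kif20a (-0.33, adjusted p = 0.223), each with a lower value in TSPAN8-low within all 3 numbers (26.2% of all tested genes had that).

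The median log2 fold change of the mitotic kinesins was 0.20 in TSPAN8-high and -0.17 in TSPAN8-low, each against all ID4-EGFP+, where that of all tested genes was -0.01 and -0.07. For the transport kinesins it was -0.03 in both, and in TSPAN8-low it turned to between 0.05 and 0.07 under the 3 other scalings. Under the authors' normalized values, a common median and quantile normalization, the mitotic median in TSPAN8-low was -0.068, -0.098 and -0.084, and that of all tested genes was 0.01, 0.02 and -0.0082. Kif6 was the only kinesin whose values in TSPAN8-high lay wholly below those in all ID4-EGFP+ (8.34% of all tested genes did). Kif14 and Kif5a lay wholly below in TSPAN8-low (10.8% of all tested genes), and neither passed the test. For Kif5a this is partly set by the minimum for testing, which it reached only through libraries outside TSPAN8-low.

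Partners of the kinesins were listed for comparison. Of 11 motors outside the symbol pattern, light chains and the kinesin-2 accessory subunit, 10 were in the table and 6 were tested. Over the 9 libraries none passed between the fractions without the block, and 2 of 6 rose in TSPAN8-high with it, where 11.8% of all tested genes did. Klc4, a kinesin-1 light chain, had 3.26, 6.76 and 6.32 FPKM in TSPAN8-high, against 1.95, 4.37 and 2.38 FPKM in TSPAN8-low (log2 fold change 0.73, adjusted p = 0.00722 with the block, 0.140 without). Cenpe, the kinetochore kinesin, had 71.9, 62.0 and 52.5 FPKM in TSPAN8-high, against 56.4, 43.7 and 38.4 FPKM in TSPAN8-low (0.43, adjusted p = 0.0340 with the block, 0.265 without). For both, TSPAN8-high was higher within each number and the fractions overlapped. The block call of Klc4 held without any 1 library and under the 3 other scalings. That of Cenpe was lost under the authors' normalized values (adjusted p = 0.0561) and a common median (0.0792), and without any 1 of the TSPAN8-high libraries or TSPAN8-low replicate 2 or 3 (adjusted p as high as 0.171). Kifap3, the accessory subunit of kinesin-2, differed by 0.11 (adjusted p = 0.738; 0.560 with the block).

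Of 16 spindle and midzone partners, all tested, none passed over the 9 libraries without the block and 4 rose in TSPAN8-high with it, where 11.8% of all tested genes did. They were Nusap1, which bundles spindle microtubules (0.56, adjusted p = 0.00501), the kinetochore gene Ndc80 (0.49, adjusted p = 0.0132), the importin gene Kpna2 (0.45, adjusted p = 0.0181) and Prc1, the midzone bundler that recruits Kif4 (0.52, adjusted p = 0.0247). Their adjusted p lay between 0.0851 and 0.161 without the block. With the block, the call of Nusap1 held without any 1 library, while adjusted p reached 0.0847 for Ndc80, 0.1003 for Kpna2 and 0.143 for Prc1 when single libraries were left out. All 3 were lost when TSPAN8-high replicate 3 was left out, and likewise TSPAN8-low replicate 2. Ndc80 and Kpna2 were also lost without TSPAN8-high replicate 1, Prc1 and Kpna2 without TSPAN8-high replicate 2, and Ndc80 and Prc1 without TSPAN8-low replicate 3. Kpna2 was lost under a common median as well (0.36, adjusted p = 0.0660). The median of the 16 was 0.30, and 14 of them had positive estimates, where 56.6% of all tested genes did. Nusap1 also rose in TSPAN8-high over all ID4-EGFP+ with the block (0.44, adjusted p = 0.0473; 0.435 without), a call that was lost when single libraries were left out (adjusted p up to 0.261 with the block). The proliferation genes Mki67 (0.47, adjusted p = 0.0154 with the block and 0.0606 without) and Top2a (0.72, adjusted p = 0.0124 with the block and 0.0823 without) passed with the block. Top2a also passed without it in a fit of the fractions alone (adjusted p = 0.0385) and without all ID4-EGFP+ replicate 2 (adjusted p = 0.0263). With the block, Mki67 was lost without any 1 of the TSPAN8-high libraries or TSPAN8-low replicate 2, and Top2a when TSPAN8-high replicate 3, or else TSPAN8-low replicate 2, was left out.

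None of the 8 tested cargo adaptors of 13 listed passed in either fit, and their median was 0.10. Of 13 genes of intraflagellar transport, the ciliary cargo of Kif3a and Kif3b, 12 were tested and their median was 0.29. Without the block 1 of the 12 passed, where 5.56% of all tested genes did. With the block 2 rose and 1 fell, where 11.8% and 7.34% of all tested genes did. Ift81, which binds tubulin in the transport particle, had 16.3, 18.0 and 16.7 FPKM in TSPAN8-high, against 11.2, 11.7 and 10.5 FPKM in TSPAN8-low. It rose without a block (log2 fold change 0.57, SE 0.13, adjusted p = 0.0306) and with it (adjusted p = 0.00538), and its adjusted p without the block reached 0.137 when single libraries were left out. Without the block that call was also lost under the 3 other scalings (0.50, 0.47 and 0.49, adjusted p of 0.0559, 0.0606 and 0.0578) and in a fit of the fractions alone (0.57, adjusted p = 0.0542). With the block Ift57 also rose (0.52, adjusted p = 0.0257; 0.0980 without) and Ift20 fell (-0.41, adjusted p = 0.0387; 0.193 without). The block call of Ift57 was lost under the 3 other scalings (0.44 in each, adjusted p of 0.0586, 0.0572 and 0.0561) and on leaving out sample 1 or sample 3 of either fraction (adjusted p as high as 0.131). That of Ift20 held under the 3 scalings and was lost without any 1 of the TSPAN8-high libraries, TSPAN8-low replicate 2 or 3 or all ID4-EGFP+ replicate 3 (adjusted p up to 0.220).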

How the data were processed

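Per the submitters' processing notes, reads were checked with FastQC, and TopHat2 2.0.12, Bowtie2 2.2.3.0, Cufflinks and the genome build mm9 were named. Which Cufflinks version and which annotation were used is not stated in the labels. Per the labels' protocols, cDNA came from the SMART-Seq v4 kit and libraries from Nextera XT, sequenced as paired ends of 100 bp; this kit does not mark strand. The authors deposited FPKM per gene and library, which were tested here. The authors also deposited normalized expression values, taken here as a signal that served only for another scaling; how they were normalized is not stated. A deposited log table was not used.

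The table held 23813 entries; 768 entries with a repeated symbol were left out. Genes with 1 FPKM or more in 3 or more libraries (11142) entered one limma 3.58.1 fit in R 4.3.3 over the 9 libraries with 3 groups on log2(FPKM + 1), with two-sided moderated tests and a mean-variance trend, with Benjamini-Hochberg adjustment over all tested genes and a threshold of 0.05. The fit without the block was run on simulated libraries drawn independently, with no shared replicate number. The fit with the block was not, so that run does not bear on the block calls. The groups share replicate numbers: the 9 pairs of libraries with one number were correlated in their deviations from the group means, with r between 0.26 and 0.48 across genes, and pairs with unlike numbers had r between -0.46 and 0.28, so a fit with the number as a block stands beside each result whose call it changes. No label says whether the preparations came from different litters; p-values thus describe variation among preparations. Transcript length and GC came from GENCODE M21 (longest coding transcript, 90.1% of tested genes). Promoter sequences came from RefSeq, GRCm38.p6. Values near the minimum are less precise, and no count interval can be given without depth. Named in full were kinesins that passed in either fit and the 6 mitotic and 6 transport kinesins of highest mean FPKM; other kinesins with a mean of at least 1 FPKM are given as group means, and up to 4 companions a list that passed. The kinesins, classes and companion lists were chosen with earlier results of these data known, and several alternatives (named in the closing section) were added after seeing the data. Python 3.11.15, pandas 2.3.3 and matplotlib 3.10.9 made tables and plots.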

Additional observations from a re-analysis of the deposited data

How the results depend on the processing

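No kinesin passed in any comparison without the replicate block under pseudocounts of 0.1 and 0.5, no filter or a minimum of 5 FPKM, 3 other scalings (the authors' normalized values, a common median, quantile normalization) or a fit of the 2 groups alone. With the block, 3 kinesins passed between the fractions, and 2 under each of the 3 other scalings. Leaving out libraries, with or without the block, gave 0 to 5 between the fractions, 0 to 3 for TSPAN8-high against all ID4-EGFP+ and 0 for TSPAN8-low against all ID4-EGFP+. The fits that combine the block with another scaling or with a library left out, and those without one replicate number, were chosen after seeing the data.

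Over all tested genes, 619 passed between the fractions (380 higher, 239 lower), 293 with no filter, 360 at 5 FPKM, 2131 with the block, and 1945, 2022 and 1971 with the block and the 3 scalings in the above order; leaving out libraries gave 10 to 633, with 10, 90 and 372 without all libraries numbered 2, 3 and 1, 185 and 284 without TSPAN8-high replicate 2 and 3, and 364 and 288 without TSPAN8-low replicate 1 and 2. The split of higher to lower calls turned to 223 to 307, 255 to 360 and 250 to 300 under the 3 scalings, and with the block from 1313 to 818 it turned to 927 to 1018, 868 to 1154 and 961 to 1010. For TSPAN8-high against all ID4-EGFP+, 16 passed, 0 with no filter, 7 with the normalized values, 27 with only the 2 groups, 344 with the block, 360, 306 and 360 with the block and scalings, and 0 to 111 with libraries left out. For TSPAN8-low these counts were 0, with 5 under the block, 28, 30 and 6 with the scalings, and 0 to 1 with libraries left out. The cause of these shifts was not tested.

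Between the fractions, the sign of uncalled kinesins turned for Kif14 (-0.073, -0.036 and -0.064 under the 3 scalings) and Kif3a (-0.011 with a common median and -0.0066 after quantile normalization), with or without the replicate block. With libraries left out the log2 fold change ranged from -0.015 to 0.35 for Kif13b, -0.045 to 0.059 for Kif14, -0.22 to 0.085 for Kif16b, -0.15 to 0.10 for Kif1b, -0.0052 to 0.40 for Kif20b, -0.011 to 0.25 for Kif21a, -0.074 to 0.36 for Kif24, -0.062 to 0.24 for Kif3a, -0.21 to 0.089 for Kif5b, -0.22 to 0.11 for Kif5c and -0.30 to 0.098 for Kif6. With 3 libraries a group and unknown depth, 95% intervals of single kinesins were wide, as for Kif5b (-0.49 to 0.35).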
